A study of Homo sapiens with 12 samples.

Results

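EDN1, the gene of the peptide endothelin-1, and EDNRB, the gene of the endothelin B receptor, were followed across drug treatments of Hs695T, a human melanoma cell line. Both were found by gene symbol in the deposited array table, where each had 1 row, so the account rests on 2 genes of the 14599 named genes and 2 rows of 29592. The cells were treated for 24 h with DMSO (the vehicle, below DMSO), with 100 nM of the BRAF inhibitor dabrafenib and 10 nM of the MEK inhibitor trametinib (DT), with 1 µM of the class I histone deacetylase inhibitor entinostat (E), or with all 3 agents (DTE). Each group had 3 arrays, and all groups were the same cell line grown in the same medium. The arrays are named biological replicates in their titles but technical triplicates in the design text, so p-values here cover only the spread between these arrays, which may be technical.

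Endothelins are short vasoactive peptides that are cut from larger precursors, the last cut being made by endothelin-converting enzymes such as ECE1, and they are degraded by neprilysin, the product of MME. They act on G protein-coupled receptors, of which the B receptor binds the endothelin isoforms about equally well and couples mainly to Gq and G11, phospholipase C and protein kinase C, with the MAP kinase ERK among the downstream kinases. In skin, endothelin-1 from keratinocytes is a growth and differentiation factor for melanocytes, and EDNRB is needed for melanocyte precursors to leave the neural crest and survive. EDN1 itself is best known as a product of endothelial cells.

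The upstream sequence of each gene is shown because on the deposited scale both genes fell with DT and both were higher with DTE than with DT. RefSeq (GRCh38.p14) lists 3 starts for EDN1 and 2 for EDNRB in the promoter table used here. The start printed for EDN1 is the one with a TATA box match in its 250 upstream bases, and the one for EDNRB is the one that shares a GATA match with it and holds an M-box match, a choice made after the matches were seen. Both are given 5′ to 3′ on the strand of the gene, with matches to the 12 motifs searched on both strands in capitals.
EDN1, chr6:12290111-12290360, plus strand: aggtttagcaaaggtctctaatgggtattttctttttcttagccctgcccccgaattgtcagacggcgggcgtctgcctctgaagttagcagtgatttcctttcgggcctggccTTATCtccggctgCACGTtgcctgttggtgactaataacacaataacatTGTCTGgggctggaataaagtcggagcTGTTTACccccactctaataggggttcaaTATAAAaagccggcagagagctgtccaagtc
EDNRB, chr13:77919683-77919932, minus strand: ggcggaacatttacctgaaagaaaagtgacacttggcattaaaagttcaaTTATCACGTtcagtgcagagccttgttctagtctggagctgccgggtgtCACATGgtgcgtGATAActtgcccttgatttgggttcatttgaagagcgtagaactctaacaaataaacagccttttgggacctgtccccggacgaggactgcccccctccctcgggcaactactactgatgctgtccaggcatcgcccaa
In the EDN1 window the matches were GATA (GATAA, 136 to 132 bases before the start), the hypoxia response element core (ACGTG, 123 to 119), SMAD (CAGACA, 87 to 82), FOXO (TGTTTAC, 60 to 54) and the TATA box (TATAAA, 31 to 26). In the EDNRB window they were GATA at 139 to 135 and at 200 to 196, the hypoxia response element core at 196 to 192, which overlaps the second GATA match, and the M-box core (CATGTG, the kind of site that MITF binds) at 151 to 146. Of 35116 windows of the same length in the table, 20.4% held GATAA, 18.5% ACGTG, 13.6% CAGACA, 2.98% TGTTTAC, 10.7% TATAAA and 9.42% CATGTG. The AP-1 motif (TGACTCA, in 4.2% of windows), the CRE half-site (TGACG, 21.2%), the palindromic E-box (CACGTG, 6.34%), SOX (ACAAAG, 13.7%), SP1 (GGGCGG, 42.6%) and ETS (CCGGAAG, 8.52%) had no match in the windows printed. A match describes letters and not a bound site. Only exact matches were read, so a site that holds a variant of a motif would be missed. At the starts not printed, SP1 had a match for EDN1 and for EDNRB, and the CRE half-site had one for EDN1.

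Values are deposited probe set intensities, and differences are log2 differences ± the limma standard error (3 arrays per group), with adjusted p-values from limma adjusted by Benjamini-Hochberg over 14599 genes. A gene passed, and is said to have risen or fallen, at an adjusted p under 0.05 on the deposited scale. Statements that the arrays of groups did not overlap only describe the values. The share of all genes without overlap was not computed. Treated arrays were dimmer in general. The median log2 difference over all genes was -0.48 for DT, -0.20 for E and -0.72 for DTE against DMSO. Array medians were 50.6 to 57.6 with DMSO, 37.5 to 40.8 with DT, 48.3 to 51.6 with E and 33.3 to 39.9 with DTE. The differences of EDN1 and EDNRB are therefore also given after quantile normalization ("quantile"), which left the median differences at -0.0035, -0.045 and -0.042. For other genes some differences are given on the deposited scale only. Spike-in RNA was added before extraction, per the labels, and was not used here. In bulk RNA, fewer cells with a transcript and less transcript per cell cannot be told apart. Among lineage genes, SOX10 lay between 419 and 1081 and PAX3 between 140 and 504 over the 12 arrays. Of the pigment and melanosome genes, PMEL lay between 42.2 and 154, GPNMB between 29.7 and 367, GPR143 between 41.3 and 89.9 and MREG between 53.9 and 138. MLANA lay between 13.3 and 20.9, TYR between 10.8 and 16.9 and TYRP1 between 7.82 and 13.7, below the median of each array.

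EDN1 was highest with DMSO and fell under every treatment, but adding entinostat went with opposite directions without and with the MAPK inhibitors. Its intensity was 188, 170 and 168 on the DMSO arrays. With DT it was 19.1, 19.2 and 17.8. With E it was 57.8, 66.3 and 58.7, and with DTE 28.0, 26.9 and 30.7. No array of any group overlapped with another group, so the order was DMSO, E, DTE and DT from high to low. In means this was 175 ± 10.8 with DMSO, 60.9 ± 4.71 with E, 28.5 ± 1.99 with DTE and 18.7 ± 0.80 with DT (SD, n = 3). On the DT arrays 26.8% to 27.6% of all rows were dimmer than EDN1, and on the DMSO arrays 74.0% to 75.5%.

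**Figure D1:**
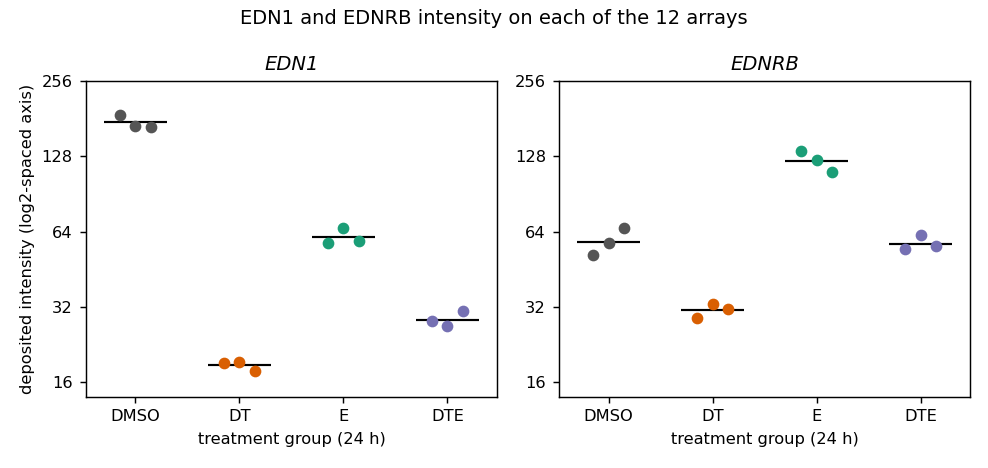
Deposited intensity of EDN1 and EDNRB on each of the 12 arrays (points, 3 per group, log2-spaced vertical axis), with the group mean of the log2 values as a line. The EDN1 groups do not overlap, with DT arrays at 17.8 to 19.2 and DMSO arrays at 168 to 188, whereas the EDNRB arrays with DTE (54.4 to 62.1) lie within the range of the DMSO arrays (51.6 to 65.9).

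The comparison of DT with DMSO asks what BRAF and MEK inhibition did to the ligand and its receptor. EDN1 fell 9.37-fold (-3.23 ± 0.10, adjusted p = 1.28e-12, quantile -2.61, and -2.16 with the medians of 6 housekeeping genes subtracted). It ranked 19 from the lowest of 14599 genes by this difference. EDNRB went from 51.6, 57.8 and 65.9 with DMSO to 29.0, 32.9 and 31.4 with DT, a fall of 1.87-fold (-0.90 ± 0.12, adjusted p = 4.92e-06, quantile -0.46 with adjusted p = 0.00983). The EDNRB arrays did not overlap between the groups. In this comparison 66.2% of all genes passed as lower and 2.97% as higher, against 14.7% and 14.2% after quantile normalization, so the call for EDNRB on the deposited scale is one that most genes share. With housekeeping medians subtracted, EDNRB was 0.16 higher with DT and did not pass.

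Entinostat alone separated the ligand from its receptor. EDN1 fell 2.88-fold with E (-1.53 ± 0.10, adjusted p = 1.43e-08, quantile -1.17), where 37.2% of all genes passed as lower (quantile 21.4%), and ranked 80 from the lowest. EDNRB rose 2.10-fold, to 134, 124 and 111 (1.07 ± 0.12, adjusted p = 1.57e-06, quantile 1.18), where 10.4% passed as higher (quantile 18.2%), and ranked 295 from the highest. All 3 E arrays were above all DMSO arrays for EDNRB and below all of them for EDN1.

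With all 3 agents, EDN1 stayed below DMSO and EDNRB was near it on the deposited scale. EDN1 was 6.14-fold lower with DTE than with DMSO (-2.62 ± 0.10, adjusted p = 7.45e-12, quantile -1.84, and -1.06 with housekeeping medians subtracted), where 74.3% of all genes passed as lower and 4.38% as higher (quantile 25.6% lower). EDNRB was at 54.4, 62.1 and 56.0 with DTE, and its difference from DMSO was -0.020 with a 95% confidence interval of -0.27 to 0.23 (adjusted p = 0.883). The p does not show that the levels were equal. After quantile normalization EDNRB was 0.72 higher with DTE than with DMSO and passed (adjusted p = 0.000252), where 21% of all genes passed as higher, and the DTE arrays were then above all DMSO arrays. Whether EDNRB stood at or above its DMSO level under the combination therefore depends on the scaling.

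What entinostat did on top of DT was read from DTE against DT, which shares no array with E against DMSO. EDN1 was 1.52-fold higher with DTE than with DT (0.61 ± 0.10, adjusted p = 0.00011, quantile 0.77, and 1.11 with housekeeping medians subtracted), and EDNRB was 1.85-fold higher (0.88 ± 0.12, adjusted p = 1e-05, quantile 1.18). Of all genes 8.68% passed as higher and 40.6% as lower in this comparison (quantile 19.6% and 24%), and the median over all genes was -0.23. All DTE arrays were above all DT arrays for both genes.

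The entinostat difference of EDN1 was thus -1.53 without DT and 0.61 with DT. The interaction, which is the second difference minus the first, was 2.13 ± 0.14 for EDN1 (adjusted p = 3.58e-07, quantile 1.94), which ranked 3 from the highest among 14599 genes. In the interaction 3.16% of genes passed as higher and 4.84% as lower (quantile 6.17% and 6.36%). The single-treatment differences of EDN1 sum to -4.75, against the -2.62 measured with DTE (quantile -3.77 against -1.84). That sum would put EDN1 at an intensity of 6.49 with DTE, a level below which only 4.45% to 6.21% of rows lay on the DTE arrays. On the DT and DTE arrays at least 26.8% of rows were dimmer than EDN1. Its DT level of 17.8 to 19.2 was below the array medians (37.5 to 40.8) and within the range of MLANA with DT (15.8 to 20.9). The part of the dim end of the scale in the size of the interaction was not tested. For EDNRB the interaction was -0.19 ± 0.16, with a 95% confidence interval of -0.54 to 0.16 (adjusted p = 0.58, quantile -0.0043), and the single differences sum to 0.17 against -0.020 measured (quantile 0.72 against 0.72). The EDNRB interval does not reach the size seen for EDN1. A fall with E together with a rise of DTE over DT, both passing, was found for EDN1 and for 66 genes in all, 0.452% of those tested (119 genes or 0.815% after quantile normalization).

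**Figure D2:**
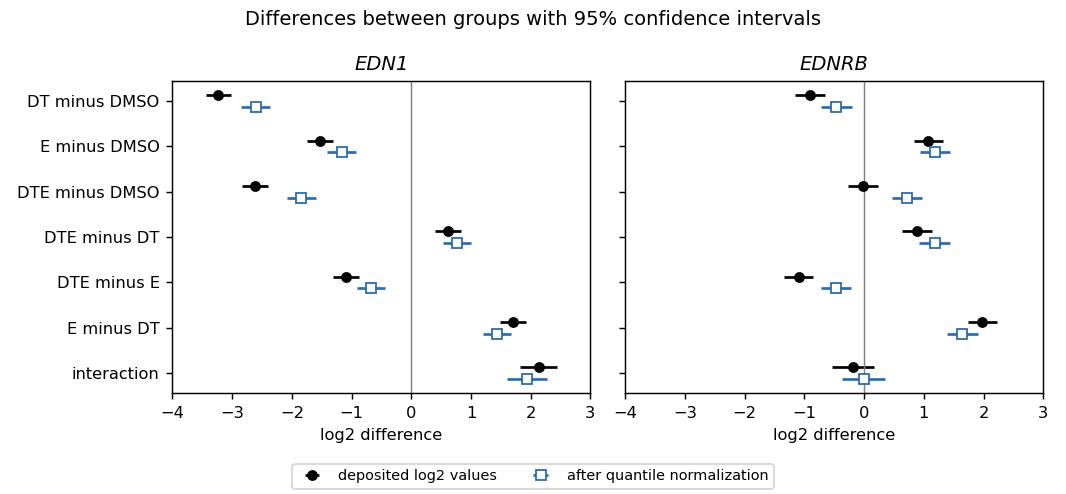
Log2 differences of EDN1 and EDNRB in the 7 comparisons with 95% confidence intervals, from the deposited values (black circles) and after quantile normalization (open blue squares). The interaction of EDN1 lies at 2.13 and 1.94 on the 2 scales and that of EDNRB at -0.19 and -0.0043, and the EDNRB difference between DTE and DMSO moves from -0.020 to 0.72.

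The remaining comparisons ask what DT did on top of entinostat and how the single arms differed. EDN1 was 2.13-fold lower with DTE than with E (-1.09 ± 0.10, adjusted p = 2.2e-07, quantile -0.67), and EDNRB was also 2.13-fold lower (-1.09 ± 0.12, adjusted p = 7.2e-07, quantile -0.47). Of all genes 72.6% passed as lower and 0.644% as higher here (quantile 12.5% and 10.5%), at a median of -0.54, and with housekeeping medians subtracted both differences were 0.044 and did not pass. Between the single arms, EDN1 was 3.25-fold higher with E than with DT (1.70 ± 0.10, adjusted p = 1.27e-09, quantile 1.44) and EDNRB was 3.94-fold higher (1.98 ± 0.12, adjusted p = 9.82e-10, quantile 1.65), where 39.4% of genes passed as higher and 7.25% as lower (quantile 20.6% and 24.2%).

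Of 10 further genes of the endothelin system that were listed, 5 had a named row: the ligands EDN2 and EDN3, the converting enzyme ECE1, the related protease ECEL1 and neprilysin, MME. The A receptor EDNRA was not analysed here. With DT 1 of the 5 rose and 3 fell (quantile 1 and 1), with E 2 rose and 0 fell (quantile 2 and 0), and with DTE 1 rose and 3 fell against DMSO (quantile 2 and 0). Of all genes 2.97% rose and 66.2% fell with DT, 10.4% and 37.2% with E, and 4.38% and 74.3% with DTE. The median over the 5 was -0.52 with DT, beside -0.48 over all genes.

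ECE1, which makes the active peptide from its precursor, was, like EDNRB, lowest with DT and highest with E. Its intensity was 695, 598 and 690 with DMSO and 271, 267 and 235 with DT. It was 852, 859 and 857 with E and 336, 381 and 297 with DTE. The arrays of the 4 groups did not overlap. ECE1 fell 2.57-fold with DT (-1.36 ± 0.11, adjusted p = 4.67e-08, quantile -0.56) and rose 1.30-fold with E (0.38 ± 0.11, adjusted p = 0.0109, quantile 0.77). It was 1.31-fold higher with DTE than with DT (0.39 ± 0.11, adjusted p = 0.00881, quantile 0.84), and its interaction was 0.010 ± 0.16 (adjusted p = 0.984). Against DMSO it was lower with DTE on the deposited scale (-0.97 ± 0.11) and higher after quantile normalization (0.28), both passing.

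MME, whose product degrades endothelins, rose under every treatment. It went from 74.5, 61.1 and 69.3 with DMSO to 118, 122 and 93.0 with DT and to 160, 169 and 156 with E. With DTE it was 198, 167 and 176, overlapping E but no other group. The rise was 1.62-fold with DT (0.69 ± 0.12, adjusted p = 0.000112, quantile 1.17), 2.37-fold with E (1.25 ± 0.12, adjusted p = 5.86e-07, quantile 1.37) and 2.64-fold with DTE (1.40 ± 0.12, adjusted p = 2.22e-08, quantile 2.39).

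The other ligand genes moved far less than EDN1. EDN2 lay between 36.7 and 70.5 and EDN3 between 35.4 and 82.4 over the 12 arrays. With DT, EDN2 fell by 0.52 ± 0.15 and EDN3 by 0.53 ± 0.13, close to the median of all genes, and after quantile normalization the differences were -0.056 and -0.037 and did not pass. Neither passed with E (EDN2 -0.24, EDN3 -0.20) or in the interaction (EDN2 0.16, EDN3 -0.13). ECEL1 passed in none of the 7 comparisons on either scale.

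**Figure D3:**
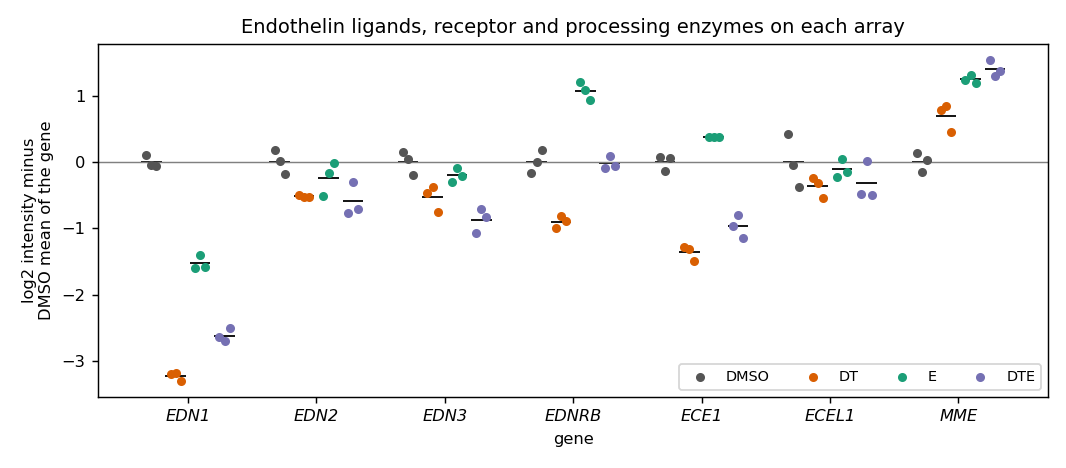
Log2 intensity of the endothelin ligand genes, EDNRB and the processing and degrading enzymes on each array, relative to the DMSO mean of the same gene (points, 3 arrays per group, line at the group mean). EDN1 lies at -3.23 with DT and -1.53 with E, EDNRB at -0.90 and 1.07, and MME is above 0 in all 3 treated groups.

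Of 36 listed genes of G protein, phospholipase C and receptor desensitisation signalling, 11 had a named row. GNAQ, GNA11 and PLCB4 were not among them. With DT 0 rose and 10 fell, at a median of -0.59 (quantile 1 and 4, median -0.08), beside 66.2% of all genes lower (quantile 14.7%) and a median of -0.48 over all genes. GRK5, a kinase that desensitises G protein-coupled receptors, fell 5.14-fold (-2.36 ± 0.14, quantile -1.58), and SHC1, an adaptor upstream of RAS, fell 4.29-fold (-2.10 ± 0.11, quantile -1.40). With E 0 rose and 3 fell (quantile 3 and 1), beside 37.2% of all genes lower, and the 3 were SHC1 (-0.93), GRK6 (-0.48) and the protein kinase gene PRKD1 (-0.48), the last 2 of which did not pass after quantile normalization. With DTE against DMSO 1 rose and 10 fell (quantile 2 and 3), beside 74.3% of all genes lower. The rise was RASGRP3, a RAS exchange factor activated by diacylglycerol (0.47). RASGRP3 was dim, at 15.6 to 22.1 with DMSO and 22.5 to 28.5 with DTE, below the median of each of these arrays. SHC1 was the 1 gene of this list that passed in the interaction (1.11 ± 0.16, quantile 1.17).

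MAPK output genes give the scale of drug action in the same arrays. All 14 measured of 18 listed fell with DT on both scales (median -3.34, quantile -2.62), beside 66.2% of all genes (quantile 14.7%), and the EDN1 difference of -3.23 lay near the middle of this list. SPRY4, which dampens growth factor signalling upstream of ERK, was at -6.08 with DT, -1.33 with E and -6.10 with DTE against DMSO, and the ERK phosphatase gene DUSP6 was at -4.52, -0.60 and -4.45. Neither passed between DTE and DT (SPRY4 -0.027, DUSP6 0.069), where EDN1 did. All 3 genes were dim there. SPRY4 was at 32.2 to 36.1 with DT and 32.9 to 34.4 with DTE, and DUSP6 at 18.7 to 25.1 and 15.9 to 27.2. EDN1 was at 17.8 to 19.2 and 26.9 to 30.7. The part of the dim end of the scale in these differences was not tested. In that comparison 4 of the 14 rose (DUSP5, ETV1, ETV4 and IER3) and 2 fell (DUSP4 and FOSL1, quantile 8 and 2), beside 8.68% of all genes higher and 40.6% lower (quantile 19.6% and 24%). The ETS factor genes ETV1 and ETV4, 2 of the 14, fell with E and rose from DT to DTE as EDN1 did (after quantile normalization ETV4 and SPRY2). Of all genes 0.452% did so (quantile 0.815%). In the interaction 6 passed as higher and 0 as lower (quantile 6 and 1), beside 3.16% and 4.84% of all genes (quantile 6.17% and 6.36%).

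Of 20 listed transcription factors known to act on EDN1, 18 were measured, and 0 of them fell with E and rose from DT to DTE on either scale. Of all genes only 0.452% did so (quantile 0.815%), so 0 of 18 does not set this list apart. With DT 2 rose (FOS and EPAS1) and 12 fell (quantile 7 and 2), with E 6 rose and 7 fell (quantile 9 and 3), and from DT to DTE 3 rose and 11 fell (quantile 6 and 4). Of all genes 66.2% fell with DT, 37.2% with E and 40.6% from DT to DTE (quantile 14.7%, 21.4% and 24%). The falls with DT and with E are near the general share, and those from DT to DTE are above it on the deposited scale only. The general shares that rose were 2.97% with DT, 10.4% with E and 8.68% from DT to DTE (quantile 14.2%, 18.2% and 19.6%). The rises in the list are above these shares on both scales, and the list was not tested as a set. The AP-1 subunit gene FOSL1 fell with DT (-3.72 ± 0.15, quantile -2.95) and with E (-1.70 ± 0.15, quantile -1.31) as EDN1 did, but fell further from DT to DTE (-0.92 ± 0.15, quantile -0.82). JUN did not pass with DT on the deposited scale (0.12 ± 0.10), but its quantile difference was 0.91, so the size of that difference depends on the scaling. JUN rose with E (0.38 ± 0.10, quantile 0.75) and fell from DT to DTE (-0.37 ± 0.10, quantile 0.11, which did not pass). FOS rose with DT (0.81 ± 0.12) and with E (0.55 ± 0.12) and fell from DT to DTE (-0.83 ± 0.12), so its interaction (-1.37 ± 0.17, quantile -1.18) had the sign opposite to that of EDN1.

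The genes of this list that rose from DT to DTE were FOXO1, EPAS1 and JUNB. FOXO1, a forkhead factor, fell with DT (-1.24 ± 0.14, quantile -0.53), rose with E (0.54 ± 0.14, quantile 0.87) and was higher with DTE than with DT (0.90 ± 0.14, quantile 1.40). EPAS1, a hypoxia-inducible factor, rose with DT (0.53 ± 0.11), with E (1.41 ± 0.11) and from DT to DTE (0.56 ± 0.11). NFKB1, an NF-kappa B subunit gene, fell from DT to DTE (-1.83 ± 0.09, quantile -1.52). GATA2 fell with DT (-0.68 ± 0.11) but not after quantile normalization (-0.15), and did not pass with E (-0.11).

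EDNRB also belongs to the melanocyte lineage genes, of which 15 of 19 listed others were measured. With E 2 of these rose (PMEL and GPNMB) and 4 fell (SOX10, MLANA, MC1R and ERBB3, quantile 5 and 3), and from DT to DTE 1 rose and 6 fell (quantile 2 and 4). Of all genes 10.4% rose and 37.2% fell with E, and 8.68% and 40.6% did so from DT to DTE. On the deposited scale these counts do not set the list apart. The quantile shares were 18.2% and 21.4% with E, and 19.6% and 24% from DT to DTE, so the 5 quantile rises with E are above the share. In the interaction 0 of the 15 passed as higher and 4 as lower (quantile 0 and 3), beside 3.16% and 4.84% of all genes (quantile 6.17% and 6.36%). PMEL, a melanosome matrix gene, rose with E as EDNRB did (1.07 ± 0.14) and was the 1 that rose from DT to DTE (0.35 ± 0.14, quantile 0.63), but its interaction passed (-0.72 ± 0.19, quantile -0.57). SOX10, a neural crest factor that controls EDNRB, fell with E (-1.09 ± 0.12, quantile -0.75) and from DT to DTE (-0.81 ± 0.12, quantile -0.39), the comparisons in which EDNRB rose. MITF, which drives melanocyte differentiation, was not called with E (-0.30 ± 0.13, quantile -0.16) and fell from DT to DTE (-1.09 ± 0.13, quantile -0.95).

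Of 16 listed other growth factors and receptors of melanocytes, 14 were measured. With DT 0 rose and 9 fell (quantile 0 and 9, median -0.96, quantile -0.52), beside 66.2% of all genes lower (quantile 14.7%). From DT to DTE 7 rose and 0 fell (quantile 9 and 0), beside 8.68% of all genes higher (quantile 19.6%). KITLG, the ligand of the receptor KIT, did not pass with DT (-0.066 ± 0.11), rose 4.25-fold with E (2.09 ± 0.11, quantile 2.05) and was 3.41-fold higher with DTE than with DT (1.77 ± 0.11, quantile 2.18). MET, the receptor of hepatocyte growth factor, fell with DT (-1.84 ± 0.10, quantile -1.26) and rose with E (1.86 ± 0.10, quantile 2.06) and from DT to DTE (2.16 ± 0.10, quantile 2.66), the same signs as EDNRB with larger values. The interaction passed as higher for 5 of the 14 and lower for 0 (quantile 6 and 0), beside 3.16% and 4.84% of all genes. The 5 were EGFR, FGFR1, IGF1R, the secreted morphogen gene BMP4 (0.85 ± 0.18, quantile 0.97) and NGFR (0.69 ± 0.15, quantile 0.68).

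**Figure D4:**
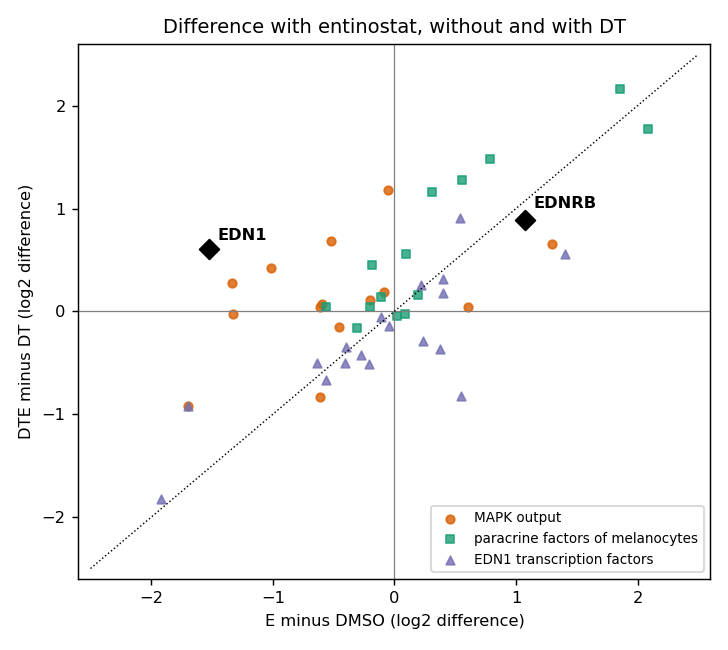
Log2 difference between E and DMSO (horizontal) and between DTE and DT (vertical) for the MAPK output genes, melanocyte growth factors and receptors, and transcription factors that act on EDN1, with EDN1 and EDNRB as black diamonds and equality as a dotted line. EDN1 lies at -1.53 and 0.61, left of 0 and above 0, and EDNRB at 1.07 and 0.88, near equality.

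The genes most like each of the pair were taken by Pearson's r over the 12 arrays, among the 6320 genes whose group means spanned at least 1 on the deposited log2 scale (2038 after quantile normalization). These r values describe arrays that share the general shift in signal and the same 4 groups. The genes were chosen on these same arrays, so the likeness of their group differences to those of EDN1 or EDNRB largely follows from that choice. For EDN1 the closest profiles were DIAPH2 (r = 0.992), the cyclin gene CCNA2 (0.991), TMEM158 (0.991), the syndecan gene SDC2 (0.988) and AUNIP (0.987). After quantile normalization they were TM4SF1 (0.993), PNPLA3 (0.991), the replication gene GINS1 (0.989), TMEM158 (0.986) and GPAT3 (0.985), so TMEM158 was the 1 gene in both. TMEM158 was at -3.20 with DT, -1.25 with E and -2.76 with DTE against DMSO, and its interaction was 1.69 ± 0.14 (quantile 1.79). It also rose from DT to DTE (0.44 ± 0.10, quantile 0.92).

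For EDNRB the closest profiles were CNKSR2 (r = 0.988), GALNT12 (0.988), GRAMD1C (0.986), VASN (0.985) and PGM2L1 (0.984). After quantile normalization they were CCDC82 (0.991), PGM2L1 (0.985), TDRKH (0.984), the adhesion gene ICAM1 (0.984) and STC1, which encodes stanniocalcin-1 (0.983). GRAMD1C had a mean of 102 with DMSO, 34.5 with DT, 294 with E and 102 with DTE. On the deposited scale its DTE and DMSO arrays overlapped as those of EDNRB did, and after quantile normalization its DTE arrays were above DMSO (1.02).

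**Figure D5:**
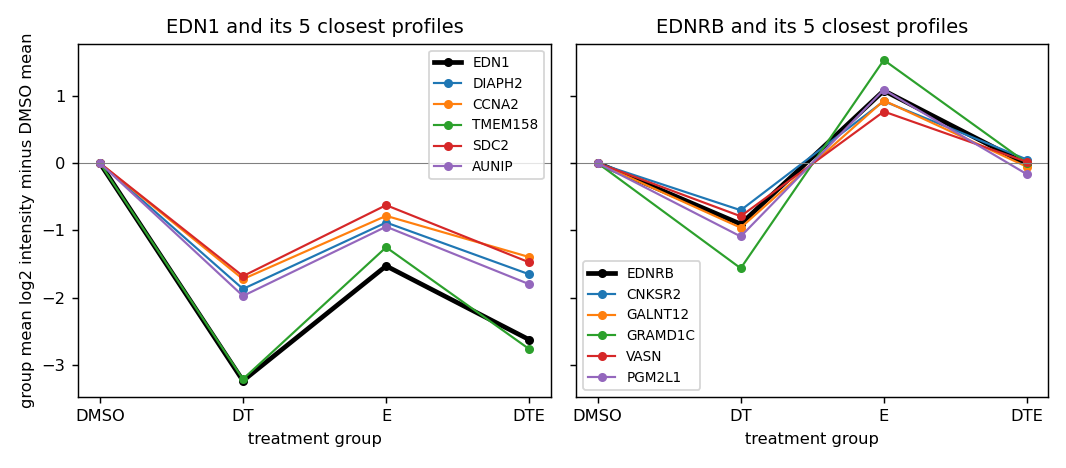
Group means of log2 intensity relative to DMSO for EDN1 (left) and EDNRB (right, both thick black) and the 5 genes with the highest Pearson's r over the 12 arrays on the deposited scale. TMEM158 follows EDN1 at -3.20 with DT and -2.76 with DTE, and the EDNRB group is below 0 with DT, above 0 with E and near 0 with DTE.

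Markers of cell types that make or receive endothelin were also read. Of 12 endothelial markers 7 were measured, with summed intensities of 619 to 721 with DMSO, 226 to 267 with DT, 881 to 914 with E and 243 to 319 with DTE. KDR, the VEGF receptor gene, is part of that sum and made up most of it with DMSO and with E. Its means were 390 with DMSO, 51.9 with DT, 674 with E and 114 with DTE. Over the 12 arrays the other 6 lay at 29.0 to 79.8 (CLDN5), 32.2 to 72.8 (NOS3), 27.9 to 64.5 (ESAM), 20.8 to 38.3 (VWF), 19.2 to 33.7 (TIE1) and 8.61 to 13.1 (EMCN). All 8 keratinocyte markers were measured, with sums of 202 to 227 with DMSO, 208 to 213 with DT, 258 to 264 with E and 177 to 204 with DTE. Among these, DSC3 went from a mean of 20.9 with DMSO to 85.3 with E. The 3 measured of 8 fibroblast markers summed to 60.2 to 134, and the 4 measured of 8 leukocyte markers to 273 to 611. Single genes made up most of these 2 sums: THY1 (47.4 to 121 over the 12 arrays) and CD68 (189 to 476). The part of these markers in the EDN1 and EDNRB results was not tested.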

How the data were processed

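The data are 12 single-colour Affymetrix arrays, 3 per group, of Hs695T cells. The authors deposited 1 table of probe set intensity values, which per the submitters' processing notes were made with RMA in Transcriptome Analysis Console. The values are linear. The scaling between arrays, the genome build and tool versions are not given in the sources used. Each value was converted to log2.

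Of 29592 rows, 14783 were linked to 1 gene symbol, 0 to several and 14809 to none by the platform table, and symbols were updated through RefSeq (GRCh38.p14, names only). For 169 genes with several rows the one brightest on average was kept, giving 14599 genes. Group means over the 12 arrays and their contrasts were fitted in R 4.3.3 using limma 3.58.1 with eBayes (8 residual and 7.68 prior degrees of freedom). The number of arrays limits the precision. The fit was tested on simulated data. The members and gene lists were chosen with earlier results of these data known.

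Named genes were EDN1, EDNRB, all measured endothelin system genes, up to 6 passing genes per other list and comparison with the largest differences, those in counts of 5 or fewer, GNAQ, GNA11, PLCB4, MITF, SOX10, PAX3, JUN, FOSL1, DUSP6 and SPRY4, and the 5 closest profiles per scale. Other genes named (GATA2 and the genes given to check cell type) were chosen after their values were seen. Promoters came from RefSeq, with motifs read as exact matches in the 250 bases before each start. Figures used matplotlib 3.10.9 in Python 3.11.15.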

Additional observations from a re-analysis of the deposited data

Results flagged for a closer look

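EDN1 in the interaction, (DTE minus DT) minus (E minus DMSO), is listed because the difference made by entinostat was of opposite sign without and with DT, and the test of that difference passed: 2.13 ± 0.14 on the log2 scale (limma, adjusted p = 3.58e-07). All 3 E arrays lay below all 3 DMSO arrays, and all 3 DTE arrays lay above all 3 DT arrays. How many of all genes show such separation was not computed. An additive sum would place EDN1 at an intensity of 6.49 with DTE, near the dim end of the arrays, and the part of that in the size of the interaction was not tested. Groups of 3 arrays were not tested for outlying arrays.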

How the results depend on the processing

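The 14 differences of EDN1 and EDNRB were recomputed under 306 alternative values in all: 3 other scalings, no dim genes (the dimmest 40% left out), trend and robust eBayes, the mean of a gene's rows, all rows, only the arrays compared, the replicate block, log2(value + 16), and leaving out each array. Of these, 298 kept both direction and side of the threshold and 8 did not. After quantile normalization the EDNRB difference between DTE and DMSO turned from -0.020 to 0.72, with array medians subtracted to 0.55, and with housekeeping medians subtracted to 1.54, and it passed under each of these scalings. Leaving out single arrays moved it between -0.11 and 0.071 without passing (adjusted p = 0.435 to 0.991). It was 0.071 without DMSO replicate 3 and 0.019 without DTE replicate 1. With housekeeping medians subtracted, which rests on 6 measured genes, EDNRB with DT against DMSO turned to 0.16, and EDN1 and EDNRB with DTE against E turned to 0.044 and 0.044, and these did not pass. The EDN1 interaction kept its call throughout, at 1.67 to 2.21 (adjusted p = 1.58e-10 to 1.26e-05) over the other settings and 2.08 to 2.20 without single arrays. The rise of EDN1 from DT to DTE stayed between 0.36 and 1.11.

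With the replicate block, EDN1 with DT against DMSO was -3.23 (adjusted p = 1.69e-11) and its interaction 2.13 (adjusted p = 1.91e-06), and the block changed no call for either gene. The labels state no pairing, so the numbers were not taken to pair the arrays in the main fit. Residuals of same-numbered arrays correlated across genes at a median r of 0.032 (lowest -0.11), against -0.011 for other pairs. Of 12 arrays, 7 correlated best with one of their own number. Same-numbered arrays were thus slightly more alike, and whether they share a batch was not tested. With only the arrays compared, the interaction has no value of its own, since it uses all 4 groups. Counts for gene lists are given on both scales beside each result. The cause of the changes with scaling was not tested.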
